A study of Mus musculus with 4 samples.

Results

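The cells described here are precartilage progenitors of the mouse hindlimb bud at E11.5, chosen from the E11.5 library by a gate on raw unique molecular identifiers (UMIs, each standing for 1 captured transcript). A cell was taken in when it had at least 2 UMIs of Sox9 and at least 3 of Col2a1, and 0 UMIs of Cdh5, Pecam1, Epcam and Fcer1g, which mark endothelium, epithelium and myeloid cells. The gate held 280 of the 2640 E11.5 cells kept after a filter of 200 genes or more and no more than 10% mitochondrial UMIs, or 10.6% (9.46 to 11.8%), and the filter kept 9958 of 10272 barcodes in the series. They were set against the 282 E11.5 cells with a UMI of Prrx1, a limb mesenchyme factor, and none of Sox9 and Col2a1. Of those 282 comparison cells, 91 held a UMI of Cdh5 (40 cells), Pecam1 (53), Epcam (33) or Fcer1g (6), so the counts and the values that turn on this choice are also given against the 191 that held none, called here the marker-free comparison cells. The series has 4 libraries of C57BL/6 hindlimb cells with no treatment named, 1 for E11.5 and 1 for each of the later days E13.5, E15.5 and, last, E18.5, and each pools the limbs of a litter after enzyme digestion, freezing and thawing. With 1 library per stage there is no replicate check and nothing was tested. Ranges in parentheses are exact 95% intervals for counting error alone.

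In the limb bud, mesenchyme cells gather into condensations that foreshadow the skeleton and then turn into cartilage. The transcription factor SOX9 starts this programme, and with its partners SOX5 and SOX6 it switches on the genes of cartilage matrix, among them collagen II (Col2a1) and the collagen IX chains that coat its fibrils. Condensations form first near the body and last in the hand and foot plate, so a limb bud at a single stage holds precartilage cells of different ages and positions.

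Sox9 ran from 2 to 20 UMIs per gated cell with a median of 4, and Col2a1 from 3 to 23 with a median of 5, values fixed by the gate. At its edge, 67 gated cells had exactly 2 UMIs of Sox9, 64 had exactly 3 of Col2a1 and 15 had both, while 58 cells missed it with 1 UMI of Sox9 and 95 with 2 of Col2a1. Both gates passed 347 cells, and the 4 excluded genes removed 67 of them. The named markers that the gate did not use were unevenly present: Col9a1 was found in 247 of 280 gated cells and Barx2, a homeobox gene of condensing cartilage, in 69 (24.6%, and 1.49% of endothelial marker cells). Prrx1 was found in 177 of the 280 cells. The median gated cell had 7505 UMIs (2930 to 25854), against 8830 in the comparison cells and 8073 in the marker-free ones. In all, 69 barcodes occurred in more than 1 library, 7 of them among gated cells.

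Levels are the UMIs of a gene per 1000000 UMIs summed over a group (counts per 1000000, or CPM), and a gene was called higher or lower when the ratio of CPM was at least 2 in either direction, its whole interval lay on the same side of 1 and both groups together had at least 20 UMIs. By this rule 739 of 10544 genes were higher in the gated cells (7.01%) and 578 lower (5.48%), while against the marker-free cells 691 of 9845 were higher (7.02%) and 229 lower (2.33%). Over all genes compared, the median log2 ratio was 0.09 in both. Of the genes called higher, 499 were shared, 67.5% of the first list and 72.2% of the second. Of those called lower 176 were shared, 30.4% and 76.9%. Since this is the contrast the gate itself made, the counts describe the gated cells and support nothing further.

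Among the genes that stood highest against both comparison sets were Lect1, Matn4, the collagen IX genes Col9a2 and Col9a3, and Col11a2, all genes of cartilage matrix. The 250 bases before a start site are shown for 6 matrix genes, since SOX9, the factor of the gate, belongs to a family that binds a short common core. Lect1, Matn4 and Col9a2 were chosen as leading genes of the comparison, and Col9a1, Matn1 and Matn3 because theirs were the only windows searched that held the core. The bases are from RefSeq on GRCm38.p6, read 5′ to 3′ on the strand of the gene, with capitals marking a match to the core ACAANG or its reverse complement CNTTGT. The Col9a1 window lies at chr1:24177360-24177609 on the plus strand, that of Matn1 at chr4:130944135-130944384 on the plus strand, that of Matn3 at chr12:8947679-8947928 on the plus strand and that of Lect1, named Cnmd in RefSeq, at chr14:79662184-79662433 on the minus strand. The Matn4 window lies at chr2:164405161-164405410 on the minus strand and that of Col9a2 at chr4:121039316-121039565 on the plus strand. Start sites are those of RefSeq, and the Col9a2 window lies partly inside the gene position given below, which is from GENCODE.
Lect1: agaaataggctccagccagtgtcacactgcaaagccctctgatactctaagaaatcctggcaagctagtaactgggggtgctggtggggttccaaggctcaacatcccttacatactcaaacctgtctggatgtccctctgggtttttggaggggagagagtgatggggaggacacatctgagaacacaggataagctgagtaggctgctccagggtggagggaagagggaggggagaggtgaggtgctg
Matn4: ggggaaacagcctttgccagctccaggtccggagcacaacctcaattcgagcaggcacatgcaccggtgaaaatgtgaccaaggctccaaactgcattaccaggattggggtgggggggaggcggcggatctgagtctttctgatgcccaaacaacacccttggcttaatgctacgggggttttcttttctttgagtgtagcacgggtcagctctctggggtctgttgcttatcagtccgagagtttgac
Col9a2: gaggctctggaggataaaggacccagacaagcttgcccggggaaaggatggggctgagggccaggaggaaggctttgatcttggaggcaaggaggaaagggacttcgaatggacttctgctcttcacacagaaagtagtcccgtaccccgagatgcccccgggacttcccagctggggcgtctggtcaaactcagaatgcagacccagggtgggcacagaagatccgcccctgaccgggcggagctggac
Col9a1: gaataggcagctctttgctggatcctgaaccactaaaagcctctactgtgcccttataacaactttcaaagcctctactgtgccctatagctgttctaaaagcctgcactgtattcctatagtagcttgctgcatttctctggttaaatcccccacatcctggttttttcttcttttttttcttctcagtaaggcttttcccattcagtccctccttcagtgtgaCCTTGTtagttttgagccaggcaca
Matn1: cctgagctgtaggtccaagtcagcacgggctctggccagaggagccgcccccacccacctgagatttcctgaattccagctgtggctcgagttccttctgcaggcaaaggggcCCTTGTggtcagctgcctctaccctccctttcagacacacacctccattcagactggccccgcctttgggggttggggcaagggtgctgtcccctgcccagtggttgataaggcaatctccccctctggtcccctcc
Matn3: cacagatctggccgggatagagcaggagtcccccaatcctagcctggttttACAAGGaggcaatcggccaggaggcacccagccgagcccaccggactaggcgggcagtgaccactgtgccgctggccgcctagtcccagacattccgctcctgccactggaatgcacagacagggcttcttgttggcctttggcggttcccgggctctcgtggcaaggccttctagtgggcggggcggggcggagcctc

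The match in the Col9a1 window began 25 bases before the start site, that in the Matn1 window 137 and that in the Matn3 window 199, and the windows of Lect1, Matn4 and Col9a2 held none, nor did a second Col9a1 window. Of the 12 cartilage matrix genes that were higher against both comparison sets, 11 were in the RefSeq table, with 13 windows. A match stood in 3 of the 13 (23.1%), against 11933 of the 32851 windows of all genes (36.3%). A match is a run of letters and not a measured binding site, and its absence says only that the letters are not in this window.

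The collagen IX genes gave the broadest signal of cartilage matrix that the gate did not use. Col9a1 (chr1:24177610-24252684 on mm10, the build of all gene positions given here), which encodes the first of the chains, had 0 to 23 UMIs per gated cell with a median of 5, and 1521 UMIs over the 280 cells against 169 over the 282. Its ratio was 11.3 (9.62 to 13.3), and 8.58 (7.16 to 10.4) against the marker-free cells. Col9a2 (chr4:121039385-121055322) had 970 UMIs against 29, a ratio of 42.0 (29.0 to 63.0) and of 30.4 against the marker-free cells. Col9a3 (chr2:180597790-180622189) had 991 against 25, a ratio of 49.7 (33.5 to 77.2) and of 32.5. The lower ratio of Col9a1 went with a higher level in the comparison cells, 58.5 CPM, where it was found in 88 of 282 cells.

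Summed over the 3 chains and set per 10000 UMIs of each cell, collagen IX ran from 0 to 68.3 in gated cells with a median of 14.3, and 3 of the 280 were at 0. All 3 chains were found in 182 gated cells, in 1 comparison cell and in 6 of the 402 E11.5 cells that carried endothelial markers. Cells around the gate had values in between. The 390 cells with both Sox9 and Col2a1 but below a threshold had a median of 5.42, the 145 with Col2a1 alone 2.38, the 440 with Sox9 alone 1.08, and both comparison sets and the endothelial cells a median of 0. The level of Col9a2 differed between the cells just outside either edge: those with 1 UMI of Sox9 had 491 CPM and those with 2 UMIs of Col2a1 had 122, against 421 in the gated cells.

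**Figure D1:**
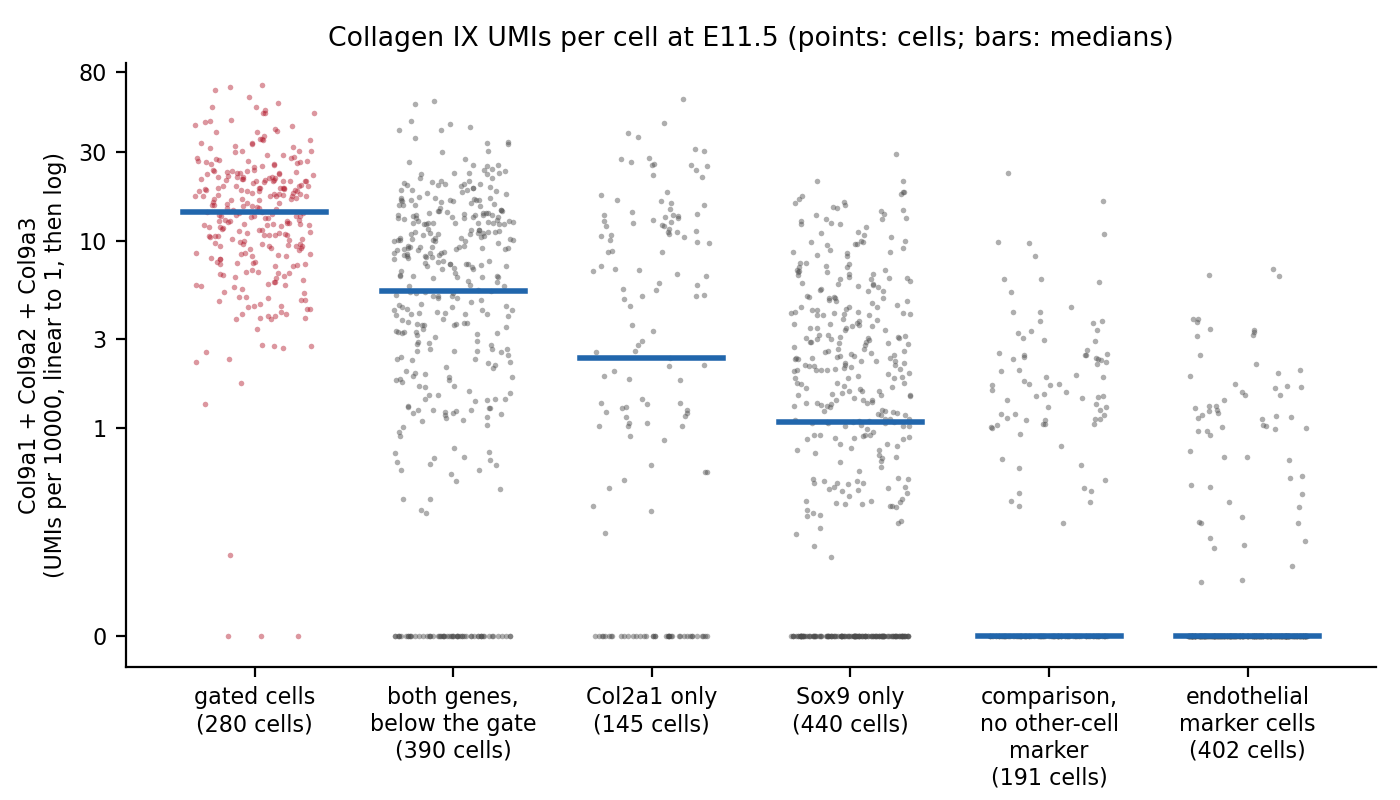
Collagen IX UMIs (Col9a1, Col9a2 and Col9a3 summed) per 10000 UMIs of each E11.5 cell, with 1 point per cell and a bar at the median, on an axis that is linear up to 1 and logarithmic above. The median is 14.3 in the gated cells, 5.42 in cells with both gate genes below a threshold, and 0 in the comparison cells.

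Of the 20 cartilage matrix genes in the files beside Col2a1, 13 had enough UMIs to be compared. Against the 282 cells 12 were higher and 1 lower, with a median log2 ratio of 4.39, and against the marker-free cells 12 of 12 were higher, with 3.54. Lect1 (chr14:79637690-79662170), which encodes the cartilage protein chondromodulin, had 270 UMIs in 98 gated cells, up to 16 in a cell, and 0 in either comparison set. With 3 UMIs put in place of the 0, it was 113-fold and 65.0-fold higher. Matn4 (chr2:164389393-164405160), a matrilin that links matrix components, had 328 UMIs in 120 gated cells and 7 in 4 comparison cells, a ratio of 58.8 (28.2 to 147). Lect1 and Matn4 were found together in 61 cells, 62.2% of the cells with Lect1 and 50.8% of those with Matn4.

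Genes of mature cartilage were present at a few UMIs. Acan, the core protein of the main cartilage proteoglycan, had 20 UMIs in 18 gated cells and none in the comparison cells, and Matn1 had 47 in 25 cells against 1. Comp had 2 UMIs, Chad 3, Mia 3 and Epyc 7, all below the minimum for a ratio. Hapln1, the link protein that ties proteoglycan to hyaluronan, had 8 UMIs in 7 gated cells, and was the matrix gene called lower. It had 117 UMIs in the 282 comparison cells but 11 in the marker-free ones, and was found in 63.2% of endothelial marker cells. Against the marker-free cells it had too few UMIs for a call.

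**Figure D2:**
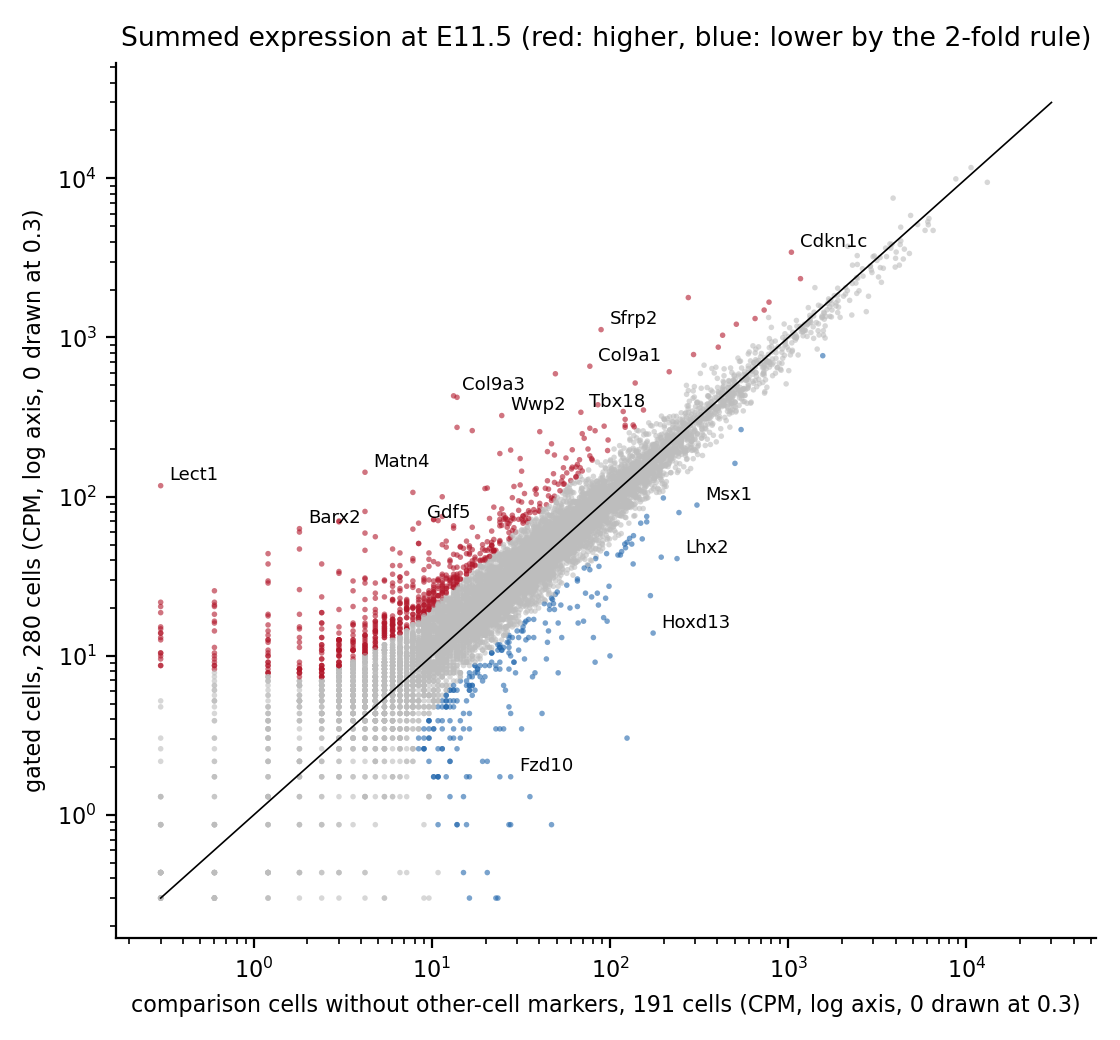
Summed expression of each gene in the 280 gated cells (vertical) and the 191 marker-free comparison cells (horizontal), both in CPM on log axes with 0 drawn at 0.3, with genes called higher in red and lower in blue. Lect1 had 117 CPM in the gated cells and 0 in the comparison cells, while Hoxd13 had 13.9 against 174.

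How many cells show a gene depends on depth, so cells were also thinned to 4000 UMIs, which left 263 gated, 261 comparison, 173 marker-free and 390 endothelial marker cells. Lect1 was found in 35.0% of gated cells (29.4 to 40.9%) and in 23.6% (18.6 to 29.2%) after thinning, against 0.746% and 0.256% of endothelial marker cells, which should lack it and had a median of 11163 UMIs. Col9a3 was found in 85.4% (80.7 to 89.3%) and after thinning in 69.2% (63.2 to 74.7%), against 3.23% and 1.54% of the endothelial cells. Matn4 was found in 42.9% (37.0 to 48.9%) and after thinning in 32.7% (27.1 to 38.7%), against 0.995% and 0.513%. All 3 genes were picked from the highest of the same contrast, and endothelial marker cells carry Cdh5 and Pecam1, which the gate excludes. Their higher shares in gated cells at either depth are thus a description and not a test.

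The regulators of cartilage followed the matrix genes. Of 14 compared, 11 were higher and 0 lower against either comparison set, with a median log2 ratio of 1.69 and of 1.82 against the marker-free cells. Sox5 (chr6:143828425-144781977) had 400 UMIs in 187 gated cells against 61, a ratio of 8.22 (6.27 to 11) and of 5.55 against the marker-free cells. Sox6 (chr7:115470872-116038796) had 136 in 100 cells against 10, a ratio of 17.1 (9.00 to 36.4) and of 14.0. The pair overlapped in 79 cells, 79.0% of those with Sox6 and 42.2% of those with Sox5. Sox8, a close relative of Sox9, had 68 UMIs against 24, a ratio of 3.55.

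Wwp2, a ubiquitin ligase gene known as a partner of SOX9 in cartilage, had 745 UMIs in 220 gated cells against 71, a ratio of 13.2 (10.3 to 17). Barx2 had 145 UMIs against 14, a ratio of 13 (7.50 to 24.4), and 34.9 (11.7 to 171) against the 3 UMIs of the marker-free cells. Foxc1, a forkhead factor of skeletal condensations, had 160 against 18, a ratio of 11.1, and 23.1 against the marker-free cells. Trps1 and Zbtb20 had ratios of 2.93 and 2.16. Runx2 and Runx1, known from bone and cartilage, were low but higher than in the comparison cells, with 37 UMIs against 11 and 29 against 13. For Barx2 and Foxc1 the choice of comparison set moved the ratio more than for the SOX genes.

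Cartilage proteoglycans carry long sulfated sugar chains. Of 12 genes of chain synthesis and sulfation, 5 were higher and 0 lower, and 4 of 11 against the marker-free cells, with a median log2 ratio of 0.63 and 0.68. Papss2, the enzyme that makes the sulfate donor in cartilage, had 138 UMIs in 85 gated cells against 8, a ratio of 21.6 (10.7 to 51.1). Its more widely expressed relative Papss1 had 705 against 328, a ratio of 2.70. Ugdh, which makes the glucuronic acid precursor of the chains, had 573 against 173, a ratio of 4.15, and Chst11, a chondroitin sulfotransferase, 42 against 7, a ratio of 7.53. All 4 were called against the marker-free cells as well. Chpf, a chain polymerising factor, was called against the 282 cells with a ratio of 2.54 and not against the marker-free ones, where it was 1.97.

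Collagen chains are modified and folded in the endoplasmic reticulum before they leave the cell. Of 26 genes of this machinery 9 were higher and 0 lower, and 7 of 25 against the marker-free cells, with a median log2 ratio of 0.60 and 0.58. Creb3l2, a transcription factor of the secretory pathway in chondrocytes, had 227 UMIs against 76, a ratio of 3.75, and Kdelr3, a retrieval receptor, 71 against 20, a ratio of 4.45. The collagen lysyl hydroxylase Plod1 had a ratio of 2.35 and the prolyl hydroxylases P4ha3 and Lepre1 had 2.78 and 2.14. All 5 were also called against the marker-free cells. Sparc, a collagen-binding matrix protein, had a ratio of 0.586 and no call against the 282 cells, and was higher against the marker-free cells, with 3.25.

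Versican and the secreted WNT antagonists Sfrp1 and Sfrp2 were higher and abundant. Vcan, the proteoglycan of early condensations, had 1364 UMIs in 259 gated cells against 109, a ratio of 15.7 (12.9 to 19.3), and 12.0 against the marker-free cells. Sfrp2, a secreted WNT antagonist, had 0 to 53 UMIs per gated cell with a median of 7, and 2583 in all against 206, a ratio of 15.7 (13.6 to 18.2). Sfrp1 had 590 against 79, a ratio of 9.37. Adhesion genes known from condensation differed less: Ncam1 had a ratio of 1.40, Cdh11 of 1.42 and Fn1 of 1.03, none of them called, and Cdh2 of 2.08, called against the 282 cells and not against the marker-free ones (1.69). Epha7, an ephrin receptor, had a ratio of 4.58.

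Genes of the WNT pathway were called in both directions, antagonists among them. Of 37 genes compared, 9 were called higher and 8 lower, and against the marker-free cells 7 and 8 of 35, with a median log2 ratio of 0.20 and 0.12. Higher were the antagonists Sfrp1 and Sfrp2, the receptors Fzd8 and Fzd9, with ratios of 3.87 and 8.36, Lgr4 with 2.75 and the transcription factor gene Tcf7l2 with 3.29. Lower were Axin2, a feedback gene that is commonly read as a sign of canonical signalling, with 15 UMIs against 59 and 3.14-fold (1.76 to 5.95), and Tcf7, 4.41-fold. Nkd2, a feedback inhibitor, was 4.39-fold lower, and the secreted antagonists Wif1 and Dkk2 were 3.26-fold and 8.45-fold lower. Fzd10, a receptor gene, had 4 UMIs in the gated cells against 79 and 46, 15.7-fold (5.91 to 59.2) and 15.9-fold lower, the lowest ratio against the marker-free cells among genes that the naming rule admits. Lef1, another transcription factor of the pathway, had a ratio of 0.548 and was not called.

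In the BMP and GDF pathway ligand genes were called in both directions. Of 29 genes 12 were called higher and 3 lower, and 14 were not called, and against the marker-free cells 10 and 4 of 28, with a median log2 ratio of 0.61 and 0.41. Gdf5 (chr2:155941023-155945367), the ligand that marks the sites of future joints and promotes condensation, had 157 UMIs in 69 gated cells against 17, a ratio of 11.6 (7.01 to 20.4) and of 8.10. Bmpr1b, a receptor through which GDF5 acts, had 27 against 11, a ratio of 3.08. Gdf10, another ligand gene, had a ratio of 7.98. Lower were 3 BMP ligand genes: Bmp4 had 125 UMIs against 342, 2.18-fold (1.77 to 2.70), Bmp7 46 against 164, 2.84-fold, and Bmp5 4 against 27, 5.38-fold.

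The Id genes, direct targets, had ratios of 3.05 (Id1), 2.27 (Id2), 2.38 (Id3) and 3.82 (Id4), and of these Id2 stood at 1.99 and was not called against the marker-free cells. Noggin (Nog), the antagonist made by condensations, had 56 UMIs in 42 gated cells against 21, a ratio of 3.34 (1.99 to 5.82). Chrdl1 and Bmper, which also bind BMPs outside the cell, had ratios of 8.53 and 7.73, and Fst had 2.24. Of these, Nog, Chrdl1, Bmper and Fst were also called against the marker-free cells. The antagonist Grem1 and the inhibitory pseudoreceptor Bambi were not called against the 282 cells, with ratios of 0.669 and 0.633.

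The FGF genes that were higher were all receptor genes. Fgfr3, the receptor of growing cartilage, had 108 UMIs in 72 gated cells against 7, a ratio of 19.4 (9.08 to 49.3) and of 26 against the marker-free cells, and Fgfr2 had 117 against 27, a ratio of 5.44. Fgfrl1, which lacks the kinase domain, had 6.90. The ligand Fgf10, through which limb mesenchyme signals to the apical ridge, had 11 against 54 and was 3.91-fold lower, and Etv4, a target of FGF signalling, 3.6-fold. In all 4 of 17 FGF genes were higher and 5 lower, and 3 and 3 of 16 against the marker-free cells, with a median log2 ratio of 0.13 and -0.15. Of the hedgehog genes 4 of 9 were higher and 0 lower in both comparisons, with medians of 0.57 and 0.20: the co-receptors Boc and Cdon (5.16 and 4.32), Gli2 (2.46) and Foxf2 (7.94, from 19 UMIs against 3). Ptch1, the target commonly read for hedgehog activity, had 10 UMIs against 9, too few for a call.

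Tgfb2, a TGF-beta ligand of condensing mesenchyme, had 452 UMIs in 167 gated cells against 78, a ratio of 7.27 (5.70 to 9.37). Tgfbi, a matrix protein induced by TGF-beta, had a ratio of 3.35. Of 13 TGF-beta genes these 2 were higher and 2, Tgfb1 and Tgfbr2, lower, and the lower calls were absent against the marker-free cells (2 and 0 of 11), with a median log2 ratio of 0.51 and 0.29.

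**Figure D3:**
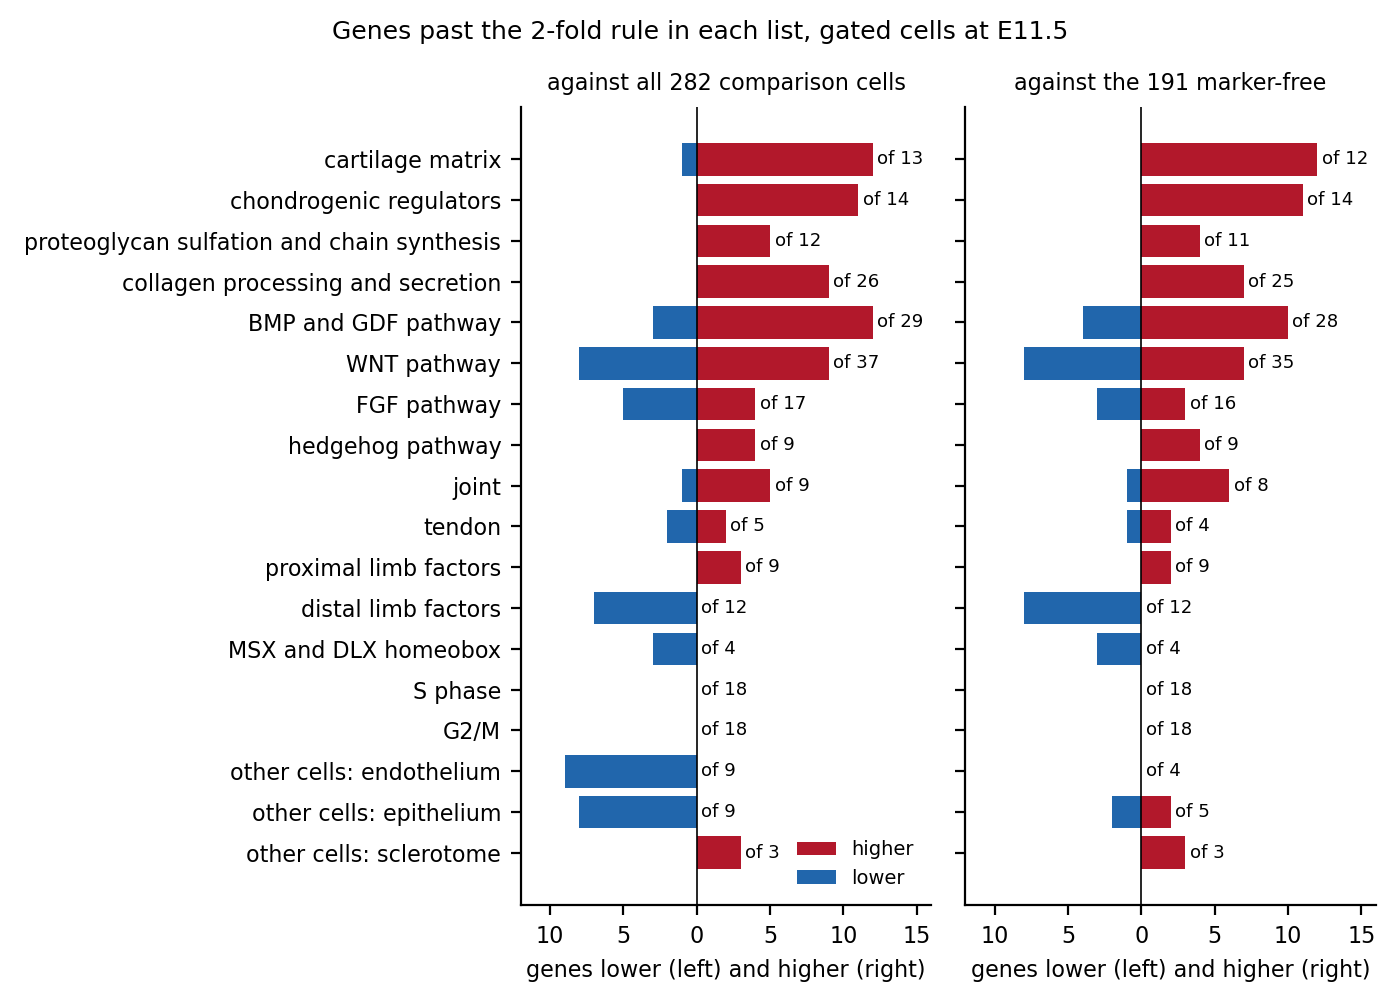
Number of genes of each list called higher (right) or lower (left) in the gated cells, against all 282 comparison cells in the left panel and the 191 marker-free ones in the right, with the number compared beside each bar. Against the marker-free cells, cartilage matrix had 12 of 12 genes higher and cartilage regulators 11 of 14, while distal limb factors had 8 of 12 lower.

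Genes of the distal limb bud were lower in the gated cells. Of 12 distal limb factors 0 were higher and 7 lower, and against the marker-free cells 0 and 8, with a median log2 ratio of -1.43 and -1.66. Hoxd13 (chr2:74668310-74671599), which marks the hand and foot plate, had 32 UMIs in 17 gated cells, 338 in 92 comparison cells and 290 in 73 marker-free cells, 8.42-fold (5.85 to 12.5) and 12.6-fold (8.70 to 18.7) lower. Hoxd12 was 6.48-fold lower and Lhx2, a factor of the distal growth zone, 4.33-fold (3.47 to 5.46). Msx1 and Msx2, kept on in undifferentiated distal mesenchyme, were 2.75-fold and 3.38-fold lower, and the AP-2 factor gene Tfap2b 8.93-fold. The comparison cells were all chosen for a UMI of Prrx1, which 177 of the 280 gated cells held. Within the gate, 3 of 10 distal factors, Msx1, Msx2 and Tfap2a, were higher in the cells with Prrx1 and 0 lower. The part of the Prrx1 rule in the lower calls was not tested. In counts summed over cells, fewer distal cells and less RNA per cell cannot be told apart, but 17 gated cells did hold Hoxd13.

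Proximal genes were higher or not called. Of 9 proximal limb factors 3 were higher, Meis1 (2.64), Pbx3 (2.09) and Zbtb16 (5.02), and 0 lower, and 2 against the marker-free cells, where Meis1 stood at 1.92. Shox2, a gene of the proximal skeleton, had a ratio of 1.96 and 1.65 and was not called, and Meis2 had 1.76 and 1.46. Hoxd9 was higher, with a ratio of 2.93. Pitx1 and Tbx4, the genes of hindlimb identity, were found in 249 and 41 gated cells with ratios of 1.55 and 1.80, not called, and Isl1 was 2.32-fold lower.

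Tbx18 and Tbx15 were among the mesenchyme genes called higher against both comparison sets. Tbx18 had 0 to 31 UMIs per gated cell, with a median of 2. In all it had 781 UMIs against 158, a ratio of 6.20 (5.22 to 7.40) and of 4.95 against the marker-free cells. After thinning, Tbx18 was found in 53.2% of gated, 16.1% of comparison and 19.7% of marker-free cells. For Tbx15 these shares were 54.4%, 14.2% and 15.6%. Tbx18 belongs to both the connective tissue list, where 5 of 17 genes were called higher and 5 lower (6 and 5 against the marker-free cells), and the sclerotome list. In the latter Tbx18, Pax9 and Meox1 were higher and the other members too low to compare. Sclerotome is the part of the somite that forms the vertebrae and shares Sox9 with limb cartilage. Of the 7 genes of the list 3, Pax1, Nkx3-2 and Uncx, were at 0 UMIs in the 280 gated cells, and 2 were at 0 in the 282 comparison cells. At least 3 UMIs of the sclerotome list were held by 137 of 280 gated cells and 32 of 282 comparison cells, and the list's summed level was 392 CPM against 85.1, most of it Tbx18 at 339 and 54.6. Prrx2, a relative of Prrx1, was 2.57-fold lower and Lum, a proteoglycan of fibrous tissue, 3.57-fold.

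Genes of joint and tendon were found inside the gate. Of 9 joint genes 5 were higher and 1 lower, and 6 and 1 of 8 against the marker-free cells, with a median log2 ratio of 2.03 and 2.70. Beside Gdf5 these were Enpp2 (25.9), Osr2 (4.07), Sfrp2 and Dcx (6.55), and against the marker-free cells also Erg, with 42 UMIs against 2. Scx, the tendon transcription factor, had 183 UMIs in 105 gated cells against 77, a ratio of 2.98 (2.27 to 3.94) and of 2.24. Scx and Gdf5 were found together in 20 cells, 19% of the cells with Scx and 29.0% of those with Gdf5. Mkx, a later tendon factor, was 2.92-fold lower, from 6 UMIs against 22. Of 4 osteoblast genes compared, Runx2 and Spp1 were higher, and 20 of the 76 UMIs of Spp1 came from 1 cell. Of 2 hypertrophy genes 0 were called against the 282 cells, and Mef2c was higher against the marker-free ones.

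Cdkn1c, an imprinted inhibitor of the cell cycle, was found in each of the 280 gated cells, with a median of 27 UMIs and up to 120. It had 7918 UMIs against 2464, a ratio of 4.03 (3.85 to 4.22) and of 3.30. Of 18 S phase genes and 18 G2/M genes 0 were called in either direction against either set. Mki67 had a ratio of 0.914 and Top2a of 0.874. The median log2 ratio was -0.29 for S phase and -0.13 for G2/M genes, and -0.42 and 0.06 against the marker-free cells. After thinning, Top2a was found in 43.7% of gated, 60.5% of comparison and 60.1% of marker-free cells. Mki67 was found in 17.9%, 28.7% and 26.6%. Not every cycle gene went this way: the G2/M gene Hmmr was found in 15.6%, 13.4% and 12.1%. Whether cycling differed was not tested. Of 11 imprinted growth genes 3 were higher, Igf2 (2.32), Cdkn1c and Plagl1 (2.23), and 1 lower, Dlk1, 2.51-fold (2.12 to 2.98), with a median log2 ratio of 0.89. Against the marker-free cells H19 was also higher, which made 4 of 11, with 1 lower. The immediate early genes Fos, Jun and Egr1 had ratios of 2.62, 2.50 and 2.54, in a list with 3 of 11 genes higher and 2, Junb and Hspb1, lower, and 3 of 10 and 0 against the marker-free cells.

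Several genes with high ratios are not usually counted among cartilage genes. Fibin had 628 UMIs in 198 cells against 26, a ratio of 30.3 (20.5 to 46.7). Fam101a had 101 against 4, Angptl1 68 against 3, Gal3st1 66 against 3 and Sema3d 87 against 4, with ratios from 27.3 to 31.7. None of these 5 was held mainly by 1 cell: the cell with most UMIs had 4.60% or less of the total.

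Markers of other cell types were compared next. The 9 endothelial genes not used by the gate summed to 45.1 CPM, against 1259 in the comparison cells and 54.7 in the marker-free ones, and 9 of 9 were called lower against the 282 cells and 0 of 4 against the marker-free. Epithelial genes summed to 91.5 CPM against 669 and 82.3, and Krt8 and Krt18 were called higher against the marker-free cells, with ratios of 2.60 and 2.94. At least 3 UMIs of the epithelial list were held by 25 of 280 gated cells (8.93%) and 3 of 191 marker-free cells (1.57%). Macrophage genes summed to 3.90 CPM against 88.9 and 3.0. The 10 lowest genes against the 282 cells were Cav1, Cd93, Sox17, Cd34, Icam2, Tie1, Gpr116, Exoc3l, Ecscr and Emcn, genes mostly known from endothelium. Against the marker-free cells 9 of these had too few UMIs for a call and Emcn was not called. The muscle gene Myog, called lower with 3 UMIs against 60, rested on a few comparison cells, of which the highest held 66 muscle-list UMIs and 2 held at least 3, and with a stricter filter on cells its log2 ratio turned from -4.00 to 1.29. The neural crest gene Sox10 was found in 9 gated cells, and Erbb3, a receptor gene of that list, in 28, with 33 UMIs against 4 and 2 and ratios of 10.3 and 11.9. The neural crest list summed to 40.8 CPM against 29.1 and 36.7, and its part in the results was not tested.

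The gated cells were not uniform, and the next comparisons are among them. A UMI of Hoxa13 or Hoxd13 and none of Meis1 and Meis2 was held by 26 cells, and the reverse by 127, while 5 had both and 122 neither. For short, the 26 are called distal and the 127 proximal, after where these genes are known to be active. The 26 were deeper, with a median of 9258 UMIs against 7452. Of 7345 genes 216 were higher in the distal cells (2.94%) and 280 lower (3.81%), with a median log2 ratio of -0.02. With at least 2 UMIs asked of either pair of genes the counts were 148 and 217.

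Cartilage matrix differed by gene between the distal and the proximal cells. Col9a1 was even, with 170 UMIs against 670 and a ratio of 0.997 (0.838 to 1.18), and was found in all 26 distal cells. Col9a3 was 4.11-fold (2.92 to 5.97) lower in the distal cells, Col9a2 2.53-fold, Matn4 4.74-fold and Lect1, with 2 UMIs against 186, 23.7-fold (6.46 to 197). Lower calls were made for 6 of 10 matrix genes and higher ones for 0, at a median log2 ratio of -1.72. Col2a1, a gate gene, was 2.11-fold lower itself. The 6 lower genes were Col9a2, Col9a3, Col27a1, Matn4, Lect1 and Cytl1.

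Regulators and enzymes differed in the same direction. Wwp2 was 6.30-fold (3.94 to 10.7) lower in the distal cells, Papss2, with 2 UMIs against 90, 11.5-fold, and Sox8, with 1 against 47, 12.0-fold, whereas Sox5 (ratio 0.527) and Sox6 (0.634) were not called. Of 13 regulators 0 were higher and 5 lower, and of 8 sulfation genes 0 and 3. Gdf5 had 0 UMIs against 92, 7.80-fold lower with 3 UMIs put in place of the 0, and 4 of 6 joint genes were lower. Tgfb2 was 15.8-fold (6.11 to 58.6) lower, Tbx18 11.5-fold, Shox2 6.42-fold and Cdkn1c 2.65-fold (2.40 to 2.95). Higher in the distal cells were Hoxa11os, the antisense transcript of the Hoxa11 locus, with a ratio of 16.3 (10.6 to 25.8), Hoxa11 itself (3.24), Ebf1 (3.49) and Lhx2 (3.44). The labels do not say whether reads were counted by strand, so Hoxa11 and Hoxa11os, which overlap, cannot be fully told apart.

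G2/M genes were also higher in the distal cells, 5 of 18, with Top2a at a ratio of 2.05 (1.68 to 2.51) and Plk1 at 2.60 (1.83 to 3.68), and Mki67 just short at 1.96. No S phase gene was called, 0 of 18.

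**Figure D4:**
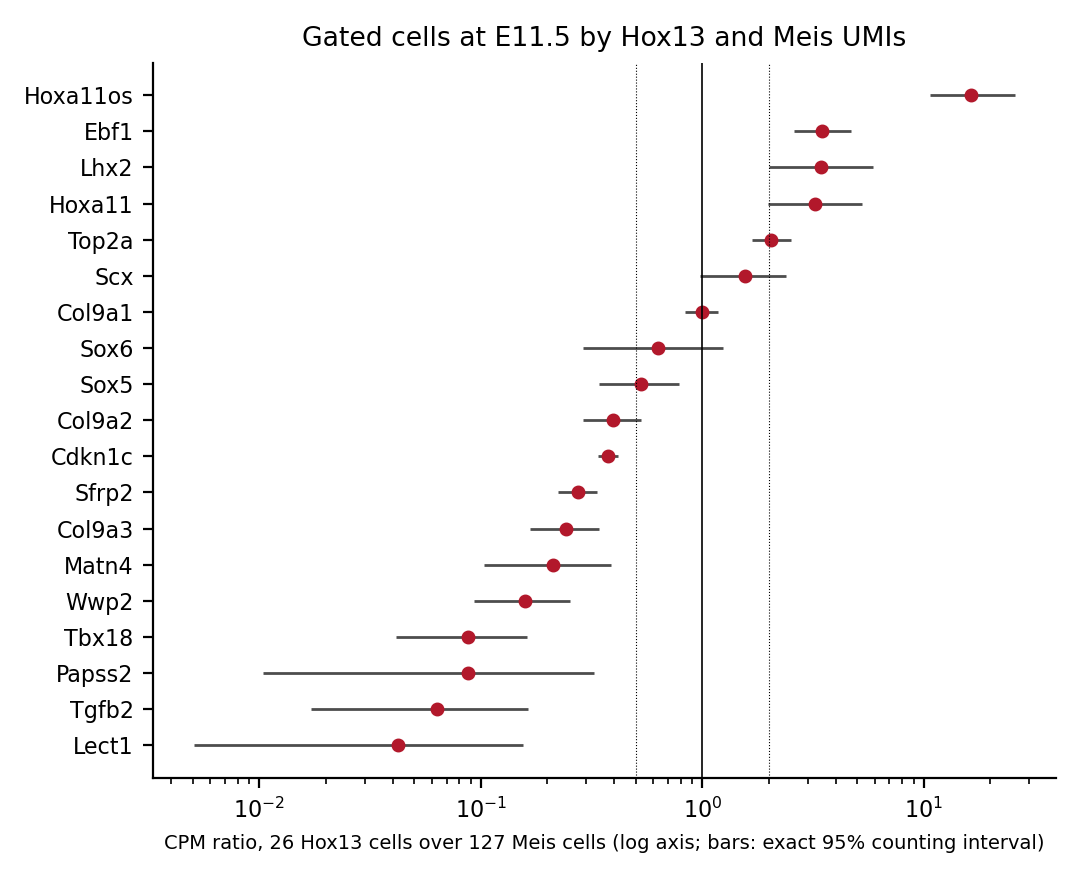
Ratio of CPM in the 26 gated cells with Hoxa13 or Hoxd13 and without Meis1 and Meis2 over the 127 with the reverse, for chosen genes on a log axis, with exact 95% intervals for counting error. Hoxa11os stands at 16.3, Col9a1 at 0.997 and Lect1 at 0.0423.

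The cells with a UMI of Gdf5 were 69 of the 280. Against the other 211 gated cells 172 of 8849 genes were higher (1.94%) and 149 lower (1.68%). Osr2, a gene of synovial joints and proximal mesenchyme, had 339 UMIs against 281, a ratio of 4.36 (3.71 to 5.13), and Osr1 22 against 11, a ratio of 7.23. With Sfrp2, Enpp2 and Dcx, 5 of 7 joint genes were called higher and 0 lower (median log2 ratio 1.17). Lect1 was higher (2.3), as was Acan (10 UMIs against 10, a ratio of 3.62), and Aldh1a2, which makes retinoic acid, had 4.37. Of the collagen IX genes none was called: Col9a1 had a ratio of 0.678, Col9a2 of 1.98 and Col9a3 of 1.44.

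Distal genes were lower in the Gdf5 cells. Hoxd13 had 0 UMIs against 32, Hoxa13 1 against 27 and Hoxd11 7 against 125, the last 4.94-fold (2.33 to 12.5) lower. Of 10 distal factors 0 were higher and 5 lower, and likewise 5 of 10 HoxA and HoxD genes. Msx1 was 6.77-fold lower. Of the 24 gated cells with Hoxa13 1 had Gdf5, and of the 17 with Hoxd13 0.

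The gated cells were also divided by Prrx1. The 177 cells with a UMI of it had a median of 8554 UMIs and the 103 without 6717, and the part of depth in this split was not tested. Of 8850 genes 108 were higher with Prrx1 (1.22%) and 124 lower (1.40%). Higher were Msx1, with 191 UMIs against 13 and a ratio of 6.55 (3.74 to 12.5), Msx2 (12.9), Igf1, with 142 against 6 and a ratio of 10.5 (4.73 to 29.2), Crabp1 (6.91) and Lef1 (2.88). Lower were Osr2, with 240 against 380 and 3.55-fold (3.02 to 4.19), Gdf5 3.35-fold, Irx5 3.43-fold, Lect1 2.60-fold and Matn4 2.11-fold. Pitx1, the hindlimb gene, was not called, with 164 of 177 and 85 of 103 cells and a ratio of 1.15. Nor were Tbx18 (0.969), Sox5 (0.992), Scx (0.936) or Col9a3 (0.952). Col9a2 was not called but had a ratio of 0.521 (0.459 to 0.593), 1.92-fold higher without Prrx1. Of the sclerotome genes Meox1 was 2.58-fold higher without Prrx1, 31 UMIs against 27, while Pax9 had a ratio of 0.996.

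The same gate was then applied to the later libraries, where stage and library cannot be told apart. It held 1429 of 2816 cells at E13.5 (50.7%, 48.9 to 52.6%), 1291 of 2598 at E15.5 (49.7%, 47.8 to 51.6%) and 177 of 1904 at E18.5 (9.30%, 8.03 to 10.7%). As a description of the gate genes themselves, Sox9 was at 609, 459, 505 and 635 CPM in the gated cells in order of stage, and Col2a1 at 749, 7238, 10630 and 20805.

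Matrix genes were higher in the later gated cells. Col9a3 had 430, 4295, 5599 and 8244 CPM in order of stage, and Lect1 117, 1714, 2122 and 3520. Matn1, at 20.4 CPM at E11.5, had 3079 at E13.5, and Hapln1, at 3.47, had 1393. Acan was at 8.68 and then 1000. Lect1 was found in 92.5% of gated cells at E13.5 against 35.0% at E11.5. Matn1, Hapln1 and Acan, at a few UMIs in the precartilage cells, were thus abundant in the cells of the same gate at E13.5.

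Other genes had their highest level among gated cells at E11.5. Sfrp2 had 1121 CPM at E11.5 and then 71.6, 31.8 and 48.7, and Vcan 592 and then 51.4, 38.1 and 22.4. Between E11.5 and E13.5 the level of Tbx18 was 339 and 6.26 CPM, that of Prrx1 463 and 33.1 and that of Barx2 62.9 and 5.48. Scx had 79.4 CPM and then 5.53. Sox5, Sox6 and Wwp2 differed little, with 174, 59.0 and 323 CPM at E11.5 and 158, 53.1 and 282 at E13.5. Dlk1, which was lower than in the comparison cells at E11.5, had 79.4 CPM there and 2138 at E13.5.

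**Figure D5:**
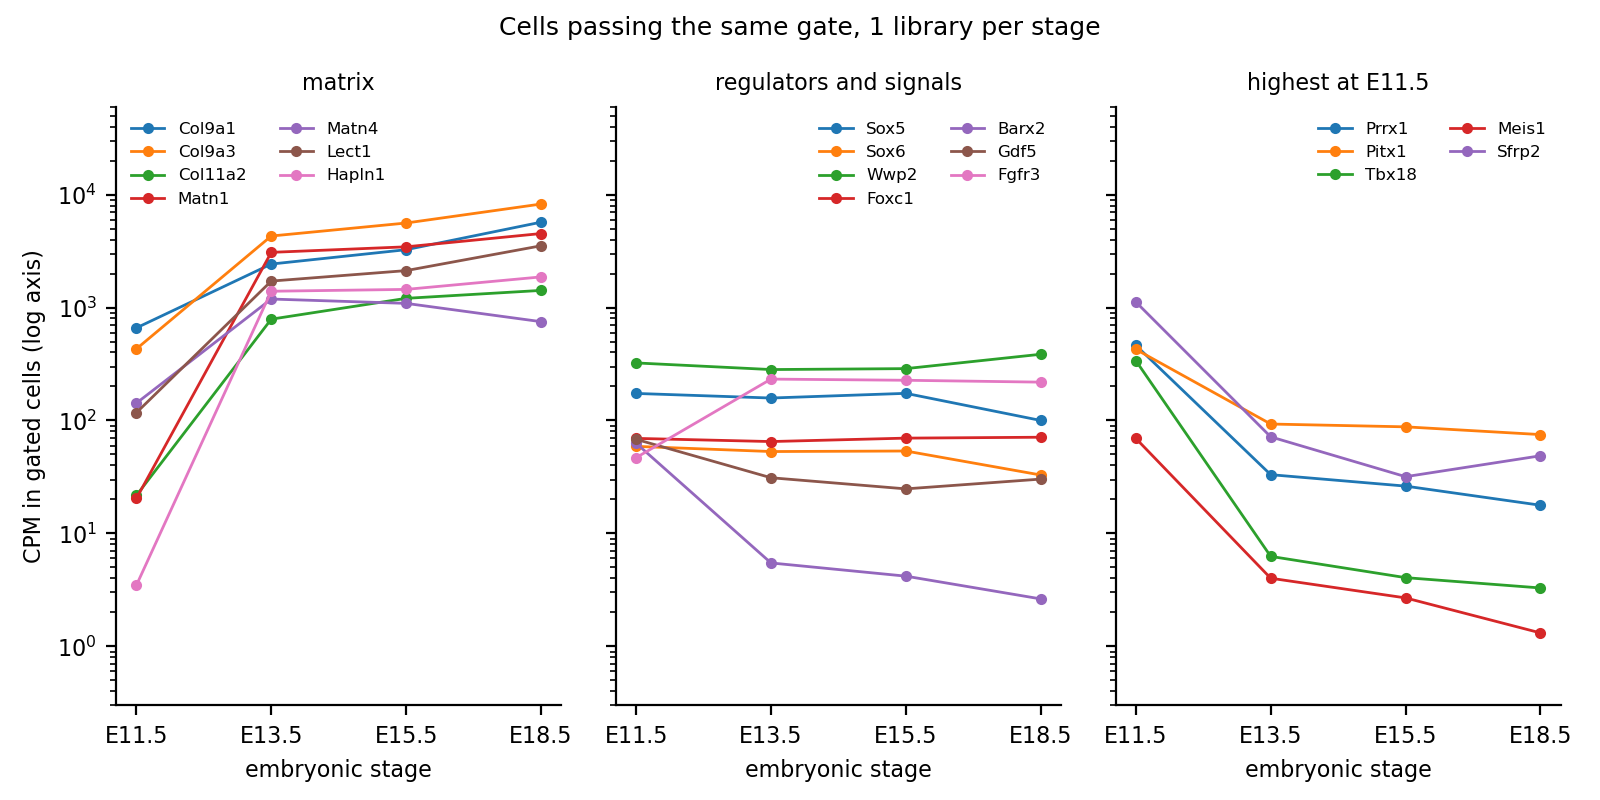
Level in CPM (log axis) of chosen genes in cells passing the same gate in each of the 4 libraries, 1 library per stage. Matn1 goes from 20.4 to 3079 CPM between E11.5 and E13.5, and Tbx18 from 339 to 6.26.

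At E13.5 the gated cells were also set against the 31 cells of that library with Prrx1 and without Sox9 and Col2a1. The rule called 468 of 12269 genes higher (3.81%) and 1028 lower (8.38%), at a median log2 ratio of -0.52. Centred on the median gene the counts were 1119 and 520, and with 31 gated cells matched on total UMIs 252 and 152, so the balance of higher and lower genes there depends on the scaling. Cartilage matrix had 18 of 19 genes higher, with a median of 4.29, and regulators 6 of 18 higher and 1 lower, among them Sox5 and Sox6. The condensation list, in which Vcan and Epha7 were higher against either set at E11.5, had 1 of 19 higher and 9 lower, Epha7 and Cdh2 among the latter. Joint genes were 0 higher and 4 lower of 11.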

How the data were processed

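Droplet single-cell RNA libraries (10x 3′ version 2 chemistry) of hindlimb cells were made at 4 stages, and the authors deposited a matrix of raw UMI counts per gene and cell for each. Reads were aligned to mm10 with Cell Ranger, with its version not given in the sources used, and Seurat 2.3.4 is named, both per the submitters' processing notes. No doublet caller was run and none is stated, so cells with most UMIs were left out as an alternative. The libraries held 26993467, 35140339, 29722589 and 14758123 UMIs in cells kept, in order of stage.

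UMIs were summed over the cells of a group and divided by the group's total to give CPM. Ratios have exact conditional binomial intervals and shares exact Clopper-Pearson intervals, both at 95%, which cover counting error only, since UMIs of 1 cell are not independent and there is 1 library per stage. For a group at 0 UMIs the ratio was computed with 3 UMIs in place of the 0, and it is not the limit of the exact interval. Thinning drew 4000 UMIs per cell. Gene positions are from GENCODE vM21 on mm10, matched by identifier for 32655 of 33456 entries, and promoters are from RefSeq.

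Named genes were the markers, up to 4 called members of each of 42 lists with the largest ratio, and, among genes with at least 50 UMIs in both groups together and found in at least 10% of the cells of the higher group, the 15 highest and 10 lowest, with gate genes left out. Further list members are given as values for their role, and Sox10, Sparc and the genes of the splits by Gdf5 and Prrx1, which were added after seeing the data, were named after their values were seen. The gate, the lists and the comparisons were chosen with earlier results of these data known. The scripts were tested on simulated data with Python 3.11.15, numpy 2.4.6, scipy 1.17.1, pandas 2.3.3 and matplotlib 3.10.9. Alternatives were another gate, other comparison cells, filters, scalings, weights and depth matching. Of the genes that the rule names, 1 is not reported here.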

Additional observations from a re-analysis of the deposited data

Results flagged for a closer look

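Among the 135 named genes, 10 were called in opposite directions at E11.5 and at E13.5. For this the gated cells of each library were set against that library's cells with Prrx1 and without Sox9 and Col2a1. The share of all genes called in opposite directions is not given here, so the count of 10 is a description only. The difference between stages was not tested, since each stage is 1 library, and the E13.5 comparison set had 31 cells. The median log2 ratio of all genes at E13.5 was -0.52, and with each stage centred on its median gene 7 of the 10 were still past a 2-fold difference at both stages, while Tgfb2 (-0.57), Col12a1 (-0.78) and Igfbp5 (-0.94) fell short of it at E13.5.

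Most of the 10 were higher at E11.5 and lower at E13.5. Sfrp2, the WNT antagonist, had a log2 ratio of 3.98 and then -2.44, and Tgfb2, a TGF-beta ligand, 2.86 and -1.09. Epha7, an ephrin receptor, had 2.20 and -2.003, and Robo2, a guidance receptor, 1.64 and -2.63. Aldh1a2, the enzyme that makes retinoic acid, had 2.005 and -4.16, from 4 UMIs in the E13.5 comparison cells. The transcription factor gene Ebf2 had 2.17 and -4.93, with 12 UMIs there, and Foxf2 2.99 and -5.07, with 6. Col12a1, a collagen of fibrous tissue, had 1.46 and -1.30, and Igfbp5, an IGF binding protein, 1.90 and -1.45. In the reverse order stood Dlk1, a membrane ligand gene, with -1.33 at E11.5 and 3.12 at E13.5.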

How the results depend on the processing

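No paired analysis was possible because each stage has 1 library. The 739 higher and 578 lower genes became 482 and 343 with a minimum of 50 UMIs and 1482 and 947 with a ratio of at least 1.5. The lower count was 229 against the marker-free cells and, in alternatives chosen after seeing the data, 212 when the gated cells also needed Prrx1 and 257 against any marker-free cell without Sox9 and Col2a1. Under the other alternatives the higher count ran from 570 to 930 and the lower from 481 to 744. The share of 10.6% was 25.4% with a gate of 1 UMI each, 3.86% with 3 of Sox9 and 6 of Col2a1, and 5.08% with cells thinned to 4000 UMIs. At E13.5 the 468 higher and 1028 lower genes became 252 and 152 with cells matched on UMIs and 1119 and 520 when centred on the median gene.

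Some genes lower against the 282 cells changed sign against the marker-free cells, with log2 ratios of 0.11 (Adm, Icam2, Lyz2, Nrarp, Tgfbr2), 0.27 (Csf1r), 0.34 (Plxnd1), 0.53 (Mfng, Pfkp) and 0.91 (Tgfb1). None of them was called higher there, and Icam2, Lyz2 and Csf1r, for example, had too few UMIs for a call. These values thus show that the lower calls were lost and not that the genes were higher. With Prrx1 also required the log2 ratios past 0 were 0.061 (Adm, Cd93, Icam2, Tgfbr2), 0.15 (Nrarp), 0.23 (Plxnd1), 0.32 (Pfkp), 0.48 (Csf1r), 0.65 (Exoc3l, Lyz2), 1.06 (Mfng) and 1.199 (Tgfb1). Against any marker-free cell without Sox9 and Col2a1 they were 0.34 (Adm), 0.076 (Nrarp), 0.49 (Pfkp) and 0.56 (Plxnd1). Myog was 1.29 with a stricter filter on cells, and Six2, a tendon-list gene, -0.23 without the 5% of cells with most UMIs. The cause was not tested. Genes with few UMIs, such as Acan, are limited by depth.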
